A study of Mus musculus with 10 samples.

Results

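The 39 protein-coding Hox genes of the mouse, in the Hoxa, Hoxb, Hoxc and Hoxd clusters, were examined for binding of the homeodomain transcription factor Dlx2 in the developing brain. The members are all protein-coding genes of the RefSeq annotation whose symbol is Hoxa, Hoxb, Hoxc or Hoxd followed by a number, 39 of 21900 protein-coding genes. There are 11 in Hoxa, 10 in Hoxb, 9 in Hoxc and 9 in Hoxd. Around each cluster, a window was taken from its first to its last Hox gene with 100 kb added on each side, and the summits of Dlx2 regions in the window were each counted once. A summit is the position of highest signal in an enriched region. Over all 5 lists, 4 regions had their summit in a Hox window. None of these 4 summits lay inside a cluster.

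Hox genes encode homeodomain transcription factors that give cells along the head-to-tail axis their regional identity. Within a cluster they lie in the order in which they are used along the body, from the anterior paralogue groups of the hindbrain to the posterior groups of the lower trunk and limbs. In the forebrain the clusters are known as silent and as classical targets of Polycomb repression. Dlx2 belongs to another homeobox family, which acts in the forebrain, where it drives the development of GABAergic neurons. Both families bind DNA through a homeodomain, and many homeodomains prefer sites with a TAAT core.

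The data are chromatin immunoprecipitation followed by sequencing (ChIP-seq) with an antibody to Dlx2, in which sonicated chromatin of formaldehyde-fixed tissue is enriched for Dlx2-bound DNA. There is 1 library each for the basal ganglia, the cortex and the olfactory bulb at embryonic day 16 (E16) and for the olfactory bulb and the cortex at postnatal day 3 (P3). Input libraries make up the remaining 5 samples and were not analysed here. The sources used here do not give strain, genotype or the number of animals per library. The authors deposited a list of enriched regions per library, with 14795 regions for the E16 basal ganglia, 6333 for the E16 cortex, 1666 for the E16 olfactory bulb, 734 for the P3 olfactory bulb and 2139 for the P3 cortex. With 1 library per group there is no replicate spread and no test between tissues or ages. Read depth is unknown and the lists differ widely in length, so an unlisted stretch fell short of the authors' calling threshold without being shown free of Dlx2.

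Promoter sequence from RefSeq (build GRCm38.p6, the patch series of mm10) was matched to 22 of the 39 Hox genes, with 24 promoters of 300 bases, from 250 before to 50 after the transcript start. No listed region of any of the 5 libraries overlapped 1 of these 24 promoters. The letters TAATTA, which read the same on both strands, occurred in 2 of the 24 (8.33%), against 962 of 21239 other protein-coding promoters (4.53%). Both belong to Hoxd11, a posterior gene of limb and trunk. The shorter core TAAT, counted on both strands and so also within every TAATTA, was in 19 of 24 (79.2%), against 10990 of 21239 (51.7%). CG dinucleotides had a median of 14.5 per Hox promoter, with 4 to 45, against a median of 13 elsewhere. The 250 bases before 3 starts are shown 5′ to 3′ on the coding strand, with TAAT and its reverse complement ATTA in capitals. They are the outer of 2 Hoxd11 starts, where TAATTA stands in a stretch poor in CG, the start of Hoxd13, which is the Hox gene nearest to any summit, and that of Evx1, the even-skipped homeobox gene beside Hoxa13, which has a summit past its 3′ end.
Hoxd11, chr2:74679308-74679557, plus strand: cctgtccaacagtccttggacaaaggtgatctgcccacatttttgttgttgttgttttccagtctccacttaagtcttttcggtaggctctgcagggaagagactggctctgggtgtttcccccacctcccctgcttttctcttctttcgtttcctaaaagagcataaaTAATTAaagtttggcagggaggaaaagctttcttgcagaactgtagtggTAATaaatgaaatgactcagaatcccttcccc
Hoxd13, chr2:74667975-74668224, plus strand: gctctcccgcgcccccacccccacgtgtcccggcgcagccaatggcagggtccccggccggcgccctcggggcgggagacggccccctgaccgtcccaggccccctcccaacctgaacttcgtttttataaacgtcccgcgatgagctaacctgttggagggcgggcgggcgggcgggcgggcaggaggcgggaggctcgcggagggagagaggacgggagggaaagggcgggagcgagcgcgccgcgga
Evx1, chr6:52313248-52313497, plus strand: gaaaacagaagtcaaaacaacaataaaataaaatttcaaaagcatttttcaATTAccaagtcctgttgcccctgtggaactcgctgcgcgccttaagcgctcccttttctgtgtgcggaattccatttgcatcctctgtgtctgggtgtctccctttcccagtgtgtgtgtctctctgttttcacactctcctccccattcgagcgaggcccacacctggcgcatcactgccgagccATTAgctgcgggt

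The Hoxd13 stretch holds no TAAT and 31 CG dinucleotides, while the Hoxd11 stretch holds 3 TAAT and 2 CG and the Evx1 stretch, which overlaps the antisense gene Evx1os, 2 and 10. These letters are a description of sequence and not of binding. Few promoters of any kind were covered. A region overlapped 748 of the 21239 other promoters (3.52%) in the E16 basal ganglia, 258 (1.21%) in the E16 cortex and 207 (0.975%) in the P3 cortex. Of the bulb lists, that of E16 covered 64 (0.301%) and that of P3 51 (0.24%). Against these shares, 0 of 24 is not a result about Hox promoters in any list. Among the other promoters with TAATTA, 55 of 962 (5.72%) were covered in the E16 basal ganglia and 8 of 962 (0.832%) in the E16 cortex.

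Counted over whole genes, no Hox gene was occupied in any of the 5 lists. Here occupied means that at least 1 summit lies in the gene body or no more than 10 kb from it. In the E16 basal ganglia 0 of 39 Hox genes met this, against 26.4% of all protein-coding genes and 20.7% of the 16380 protein-coding genes no longer than Hoxa3, the longest Hox gene (44009 bp). In the E16 cortex it was 0 of 39 against 17.0% and 16.3%. At these shares, 39 genes would include 10.3 or 8.09 occupied genes in the basal ganglia and 6.63 or 6.35 in the cortex. In the other 3 lists the shares are low, and 0 of 39 lies near them. These were 3.59% of all and 1.39% of the shorter genes in the E16 bulb, 2.03% and 0.928% in the P3 bulb, and 6.09% and 3.5% in the P3 cortex. Hox genes stand side by side, so 1 summit can serve several of them and the 39 genes are not independent. No test of the difference was made.

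**Figure D1:**
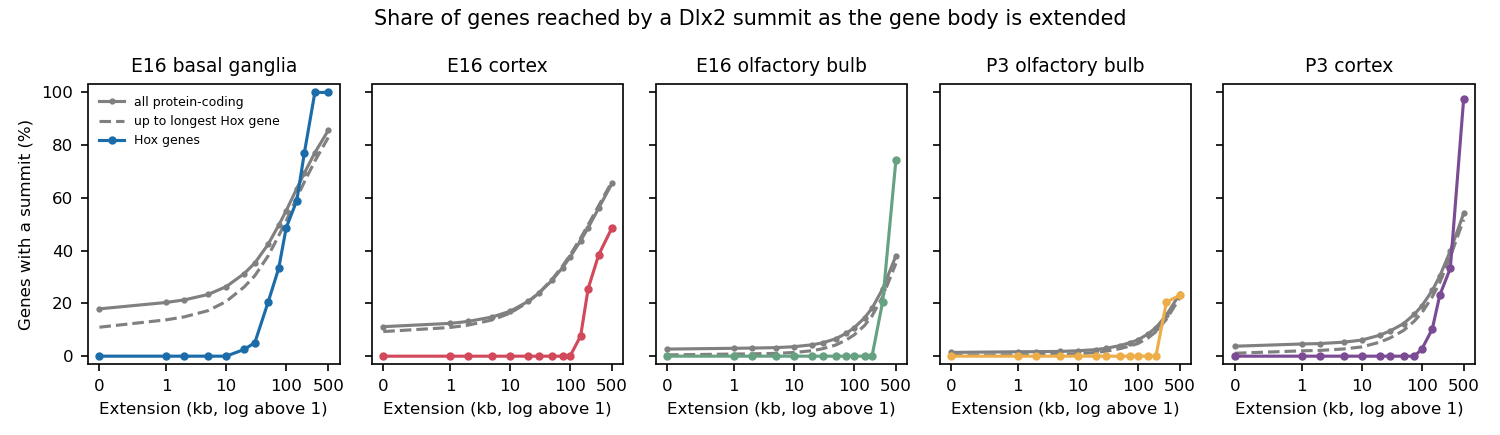
Share of genes (y axis, percent) with a Dlx2 summit within a given extension of the gene body (x axis, kb, linear to 1 and logarithmic above), for Hox genes (coloured), all protein-coding genes (solid grey) and those no longer than the longest Hox gene (dashed grey), 1 panel per list. The Hox line stays at 0% up to 10 kb in all 5 panels and reaches 48.7% at 100 kb in the E16 basal ganglia, where all genes are at 55.2%.

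The plot of reach by extension shows how far from the genes the nearest summits were. In the E16 basal ganglia 1 of 39 Hox genes had a summit within 20 kb (2.56%, against 31.3% of all protein-coding genes), 8 within 50 kb (20.5% against 42.4%) and 19 within 100 kb (48.7% against 55.2%). At 200 kb the order had turned, with 30 of 39 (76.9%) against 69.4%, and all 39 had a summit within 300 kb, against 77.1%. The 8 within 50 kb belong to Hoxa and Hoxd, and they include Hoxa3, Hoxd9, Hoxd10, Hoxd11, Hoxd12 and Hoxd13. In the E16 cortex no Hox gene had a summit within 100 kb, where 37.5% of all protein-coding genes had one, and 10 of 39 (25.6%) had one within 200 kb, against 48.7%. In the P3 cortex Hoxd1 alone had a summit within 100 kb (2.56% of the 39 Hox genes, against 19.0% of all protein-coding genes). In the E16 and P3 olfactory bulb none had one within 200 kb, against 18.2% and 10.8% of all genes. At 500 kb the order had turned in 2 further lists. There 38 of 39 Hox genes in the P3 cortex (97.4%) and 29 of 39 in the E16 bulb (74.4%) had a summit. The shares of all genes were 54.1% and 38.0%. In the P3 bulb the order had turned at 300 kb, with 8 of 39 (20.5%) against 15.6%. At 500 kb it had turned back, with 9 of 39 (23.1%) against 23.7%. The Hox genes of a cluster share their nearest summits, so these late steps rest on few summits.

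By paralogue group, the anterior genes of groups 1 to 3, which pattern the hindbrain, were up to 248 kb from the nearest E16 basal ganglia summit (8 genes, median 88.1 kb). Hoxa2, which sets the identity of the second branchial arch, lay 43.0 kb from a summit and Hoxb1, a marker of rhombomere 4, 228 kb from another. The central genes of groups 4 to 8 were 55.2 to 290 kb away (15 genes, median 138 kb), from Hoxd8 to Hoxb5. The posterior genes of groups 9 to 13 were 18.8 to 267 kb away (16 genes, median 87.5 kb). The ends of that range are Hoxd13, a gene of digit formation, and Hoxb9. The ranges of the 3 classes overlapped over most of their length.

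**Figure D2:**
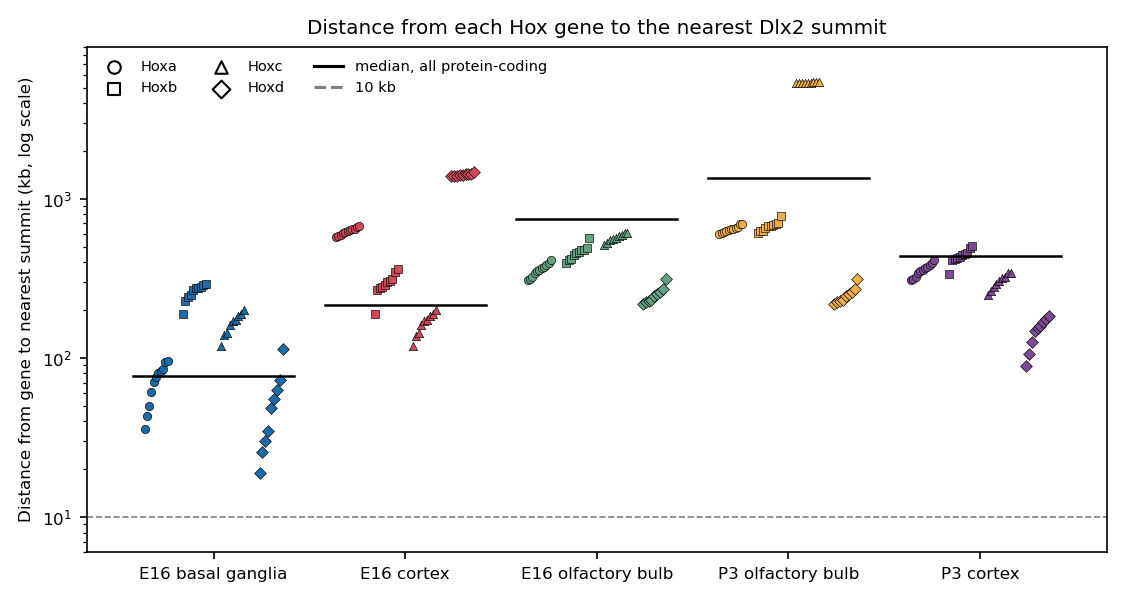
Distance (y axis, kb, log scale) from each of the 39 Hox genes to the nearest Dlx2 summit in each of the 5 lists (x axis), with 1 point per gene, the marker shape giving the cluster, genes ordered by distance within it, and a black line at the median of all protein-coding genes. No point lies under the dashed 10 kb line, and the lowest is Hoxd13 at 18.8 kb in the E16 basal ganglia.

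Between clusters, in the E16 basal ganglia the Hoxd genes were nearest to a summit (median 48.4 kb) and were followed by the Hoxa genes (75.8 kb), the Hoxc genes (171 kb) and the Hoxb genes (271 kb). The Hoxa and Hoxd ranges overlapped, with the Hoxa genes up to 96.2 kb away and the Hoxd genes 18.8 to 114 kb, while the Hoxb genes at 190 to 290 kb met only the upper end of the Hoxc genes at 119 to 199 kb. In the E16 cortex the order differed. The Hoxc genes were nearest (median 171 kb) and were followed by Hoxb (294 kb), Hoxa (624 kb) and Hoxd (1417 kb). Over all 39 genes the median was 114 kb in the E16 basal ganglia, against 76.5 kb for all protein-coding genes, and 575 kb in the E16 cortex, against 214 kb. In the other 3 lists the Hox median was the shorter one, at 397 kb against 743 kb in the E16 bulb, 654 kb against 1358 kb in the P3 bulb and 336 kb against 435 kb in the P3 cortex. The P3 bulb list had no summit within 5 Mb of the Hoxc genes (5313 to 5410 kb). That list is the shortest, and none of its summits follows Hoxc on chromosome 15. Of all protein-coding genes, 10.3% were at least as far from a P3 bulb summit as the Hoxc median of 5369 kb.

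The 4 summits in the Hox windows were 3 from the E16 basal ganglia and 1 from the P3 cortex, with 2 at Hoxa, 2 at Hoxd and none at Hoxb or Hoxc. The E16 cortex, E16 bulb and P3 bulb lists had none. Each of the 4 regions was in 1 list only, and the nearest summit of any other list lay 198 to 1574 kb away. For comparison, 36.5% of all E16 basal ganglia regions and 36.3% of all P3 cortex regions overlapped a region of another list. Their widths were 358, 511 and 531 bp in the E16 basal ganglia, where the list's median is 501 bp, and 410 bp in the P3 cortex, with a median of 395 bp. Fold enrichment, which the authors' peak caller gives as summit signal relative to a local background, was 3.91, 4.69 and 4.96 in the E16 basal ganglia, where the list's median is 4.55. It was 4.18 in the P3 cortex, with a median of 4.42.

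**Figure D3:**
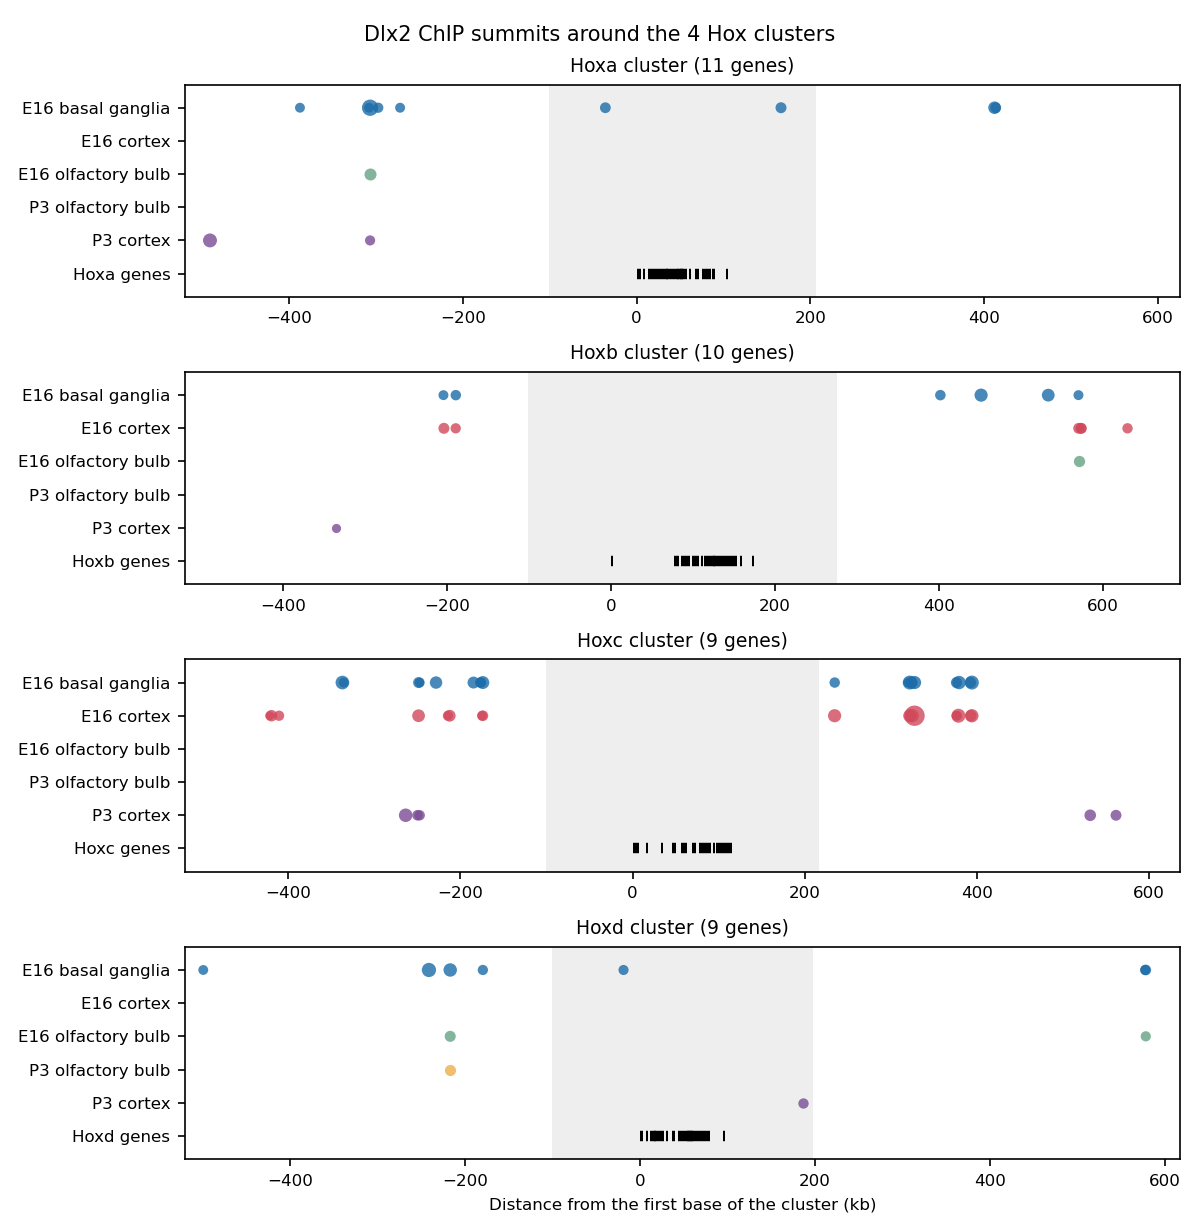
Summits within 500 kb of each Hox cluster (x axis, kb from the first base of the cluster), 1 panel per cluster and 1 row per list, with the Hox gene bodies in black, the window of 100 kb on each side in grey and a point area that grows with fold enrichment. The grey windows hold 4 points, 2 at Hoxa and 2 at Hoxd, and none of them lies over the Hox genes.

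At the posterior ends of Hoxa and Hoxd, 1 basal ganglia summit each lay beside an even-skipped homeobox gene. Evx1 and Evx2 are paralogues that arose with the clusters and are known for roles in spinal cord interneurons and limbs. Evx1 lies on chromosome 6 from 52313498 to 52318389 on the plus strand. Its region, from 52321382 to 52321892, had its summit at 52321656, 3.27 kb past the 3′ end of the gene and 60.8 kb from Hoxa13. Evx2 lies on chromosome 2 from 74652989 to 74661520 on the minus strand. Its region, from 74649042 to 74649572, had its summit at 74649387, 3.6 kb past the 3′ end and 18.8 kb from Hoxd13. The summits thus fell on the same side of the paralogous genes, at similar distances. The Evx1 region had a fold enrichment of 4.96 and a −log10 q of 11.1, rank 5302 of 14795. The Evx2 region had 3.91 and 5.06, rank 11126. Both Evx genes meet the 10 kb rule in the E16 basal ganglia, where 26.4% of genes do, and in no other list. In the E16 cortex the nearest summits were 733 kb from Evx1 and 1372 kb from Evx2.

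The other pair lay at the anterior sides. The one at Hoxa, from the E16 basal ganglia, had a fold enrichment of 4.69, a −log10 q of 7.85 and rank 7507 of 14795. In the P3 cortex, a region on chromosome 2 from 74854497 to 74854906 had its summit inside Mtx2, a gene of mitochondrial protein import that flanks the cluster, 89.6 kb from Hoxd1. Its fold enrichment was 4.18, its −log10 q 7.05 and its rank 1182 of 2139, and the pseudogene Gm14425 was 0.967 kb away. Over the whole list, 0.803% of P3 cortex summits were within 1 kb of an annotated pseudogene. Whether reads from other copies contribute to this region was not tested.

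**Figure D4:**
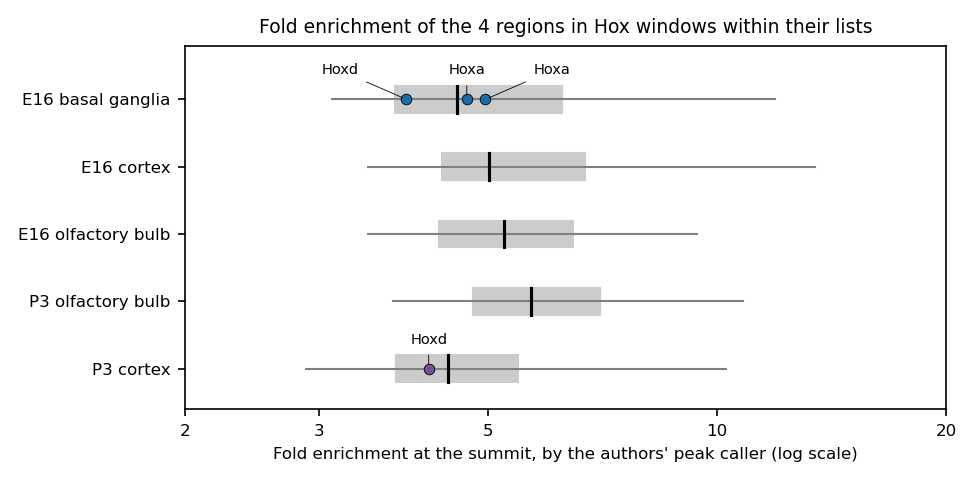
Fold enrichment by the authors' peak caller (x axis, log scale) of the 4 regions in Hox windows, as points named by their Hox cluster, over the spread of all regions of each list (box, the 25th to 75th percentile with the median; line, the 5th to 95th percentile). The 4 points, at 3.91, 4.18, 4.69 and 4.96, lie on both sides of the medians of 4.55 and 4.42, and 3 lists have no point.

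The windows as a whole cover 1.29 Mb, and their emptiness has to be read against sparse lists. The E16 basal ganglia list held 2.32 summits per Mb there and 5.46 per Mb over the annotated chromosomes, a density at which 1.29 Mb would hold 7.06 summits instead of 3. The E16 cortex list had 0 against 2.34 per Mb, or 3.03 summits. The densities of the E16 and P3 bulb correspond to 0.796 and 0.35 summits, with 0 found in both, and that of the P3 cortex to 1.01, with 1 found. The windows are 297 to 374 kb long. Of 8998 consecutive windows of 300 kb along the chromosomes, 52.5% held a summit in the E16 basal ganglia, as 2 of the 4 Hox windows did. The share was 19.7% in the E16 cortex and 19.1% in the P3 cortex, where 0 and 1 of the 4 Hox windows held one. It was 14.9% in the E16 and 7.23% in the P3 bulb, where no Hox window did. By this count the Hox windows are near the background in every list.

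Hox windows are rich in genes, however, with at least 9 each. Among the 639 windows of 300 kb that touch at least 9 protein-coding genes, a background chosen after the data were seen, 65.3% held an E16 basal ganglia summit and 58.4% an E16 cortex summit. The shares were 10.0% and 7.82% in the bulb lists of E16 and P3 and 23.5% in the P3 cortex. The E16 cortex list, whose summits concentrate in gene-rich windows, is thus the list in which 0 of 4 lies farthest below its background share. With 4 windows this remains a description.

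The stretches free of summits ran well past the clusters. In the E16 cortex the summits that flank Hoxd were at 73281018 and 78870858 on chromosome 2, 5590 kb apart, and 1.44% of the gaps between neighbouring summits of that list were as long or longer. For Hoxa the gap was 2003 kb (5.28% as long or longer), for Hoxb 760 kb (11.3%) and for Hoxc 409 kb (16%). In the E16 basal ganglia the gaps were 202 kb at Hoxa, 591 kb at Hoxb, 409 kb at Hoxc and 596 kb at Hoxd, which 21.8%, 7.03%, 11.0% and 6.97% of its gaps matched or exceeded. Long gaps hold much of the chromosomes, so a share of the gaps understates how common such a stretch is. Gaps at least as long as that at Hoxd held 50.6% of the basal ganglia list's span and 32.9% of the cortex list's. For the cortex gaps at Hoxa, Hoxb and Hoxc the share of the span was 65.2%, 83.8% and 90.6%.

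Outside the windows the 2 longest lists filled again, with more summits around Hoxc than around any other cluster. The nearest summits beyond 100 kb were 119 kb past Hoxc4, inside Smug1, a DNA repair gene, with a fold enrichment of 4.3 in the E16 basal ganglia and 8.03 in the E16 cortex. In the band from 200 to 300 kb outside the clusters the E16 basal ganglia list had 18 summits, 11 of them at Hoxc, and the E16 cortex list 12, again with 11 at Hoxc. These include regions in Hnrnpa1, a gene of RNA processing (9.18 in the basal ganglia and 7.56 in the cortex), and in the neighbouring Nfe2 (8.01 and 21.8). The band was the densest in both lists, at 22.5 and 15 summits per Mb, against 5.46 and 2.34 over the annotated chromosomes. From 400 to 500 kb the densities were 3.75 and 5 per Mb. In the 3 shorter lists the nearest summits outside the windows were 217 kb before Hoxd13 in both bulb lists and 247 kb before Hoxc13 in the P3 cortex.

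Of 57 sites 100 to 500 kb from a cluster, with summits within 200 bp of each other joined, 13 were in more than 1 list and 3 were in 3 lists. One of the 3 lies 217 kb before Hoxd13 and 63.4 to 63.5 kb from Lnpk, a gene of endoplasmic reticulum structure, with summits between 74451296 and 74451391 on chromosome 2. Its fold enrichment was 8.4 in the E16 basal ganglia, 5.05 in the E16 bulb and 5.16 in the P3 bulb. Another lies 307 kb before the Hoxa cluster and 10.7 kb from the adaptor protein gene Skap2, at 13.3 in the E16 basal ganglia, 6.34 in the E16 bulb and 3.97 in the P3 cortex. The third lies 396 to 397 kb past Hoxb1 and 2.78 to 2.96 kb from the sorting nexin gene Snx11, at 3.71 in the E16 basal ganglia, 4.78 in the E16 cortex and 5.32 in the E16 bulb. Hoxc has 8 of the 13 shared sites, none of them in a bulb list. The share of such sites over the whole lists was not computed under this joining rule. These counts are therefore not set against a background. Fold enrichment is relative to each library's own background, so the values of a site are not compared between lists.

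Among the non-coding genes, none of the 6 microRNA genes had a summit within 10 kb in any list. No share over all microRNA genes was computed. Of protein-coding genes no longer than Hoxa3, 20.7% were occupied in the E16 basal ganglia and fewer in every other list. Against such shares, 0 of 6 is not a result about these genes. The 6 microRNA genes in the windows are Mir10a, Mir10b, Mir196a-1, Mir196a-2, Mir196b and Mir615, whose products are known to target Hox transcripts in part. Their smallest distance to a summit in any list was 76.7 kb, for Mir10b in the E16 basal ganglia. Of 35 long non-coding RNA genes, 3 had an E16 basal ganglia summit within 10 kb and 1 an E16 cortex summit. No share over all long non-coding RNA genes was computed, so these counts are not a result about them. The 3 were Halr1 (5.71 kb), Evx1os (6.82 kb), the antisense neighbour of Evx1, and D930007P13Rik (9.09 kb), at the far edge of the Hoxc window. D930007P13Rik was also the one in the cortex (8.98 kb). Hotair, the Hoxc transcript known from work on Polycomb, was 197 kb from the nearest summit in both lists, and Hottip, beside Hoxa13, 54.1 kb in the basal ganglia. Of the 7 protein-coding genes other than Hox that touch a window, Evx1, Evx2 and Skap1 were occupied in the E16 basal ganglia. Skap1 was also occupied in the E16 cortex and E16 bulb, and Mtx2 in the P3 cortex. Of all protein-coding genes, 26.4% were occupied in the E16 basal ganglia and 17.0% in the E16 cortex. The share was 3.59% in the E16 bulb and 6.09% in the P3 cortex. With 7 genes, these counts are not a result about the genes. The summits at Skap1, a T-cell adaptor gene that runs out of the Hoxb window, lay outside that window.

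**Figure D5:**
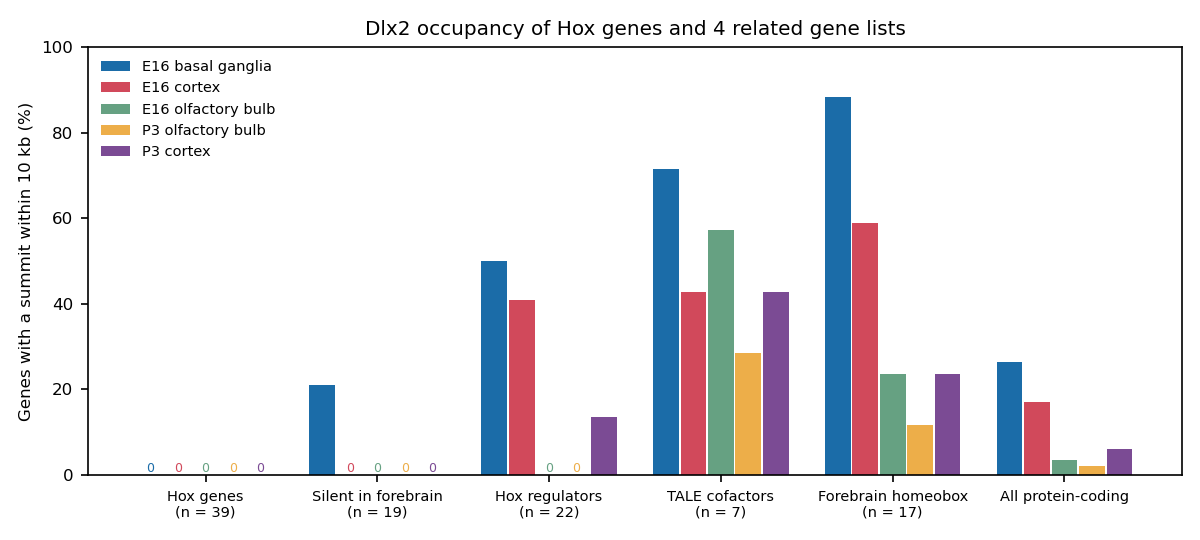
Percentage of genes (y axis) with a summit within 10 kb in each of the 5 lists (bar colour), for the Hox genes, 4 related gene lists and all protein-coding genes, with the number of genes under each name. Hox genes are at 0 in all 5 lists, while 88.2% of the 17 forebrain homeobox genes are occupied in the E16 basal ganglia.

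Other lists of genes were set beside the Hox genes under the same 10 kb rule. Of 19 developmental transcription factor genes of other organs, among them the heart and gut factors Gata4, Gata6 and Nkx2-5, the muscle gene Myod1 and the posterior gene Cdx2, 4 were occupied in the E16 basal ganglia (21.1%), near the 26.4% of all genes. These were Evx1, Evx2 and the T-box genes Tbx4 (fold enrichment 4.1) and Tbx5 (3.52), where the list's median is 4.55. The Evx1 and Evx2 summits are among those counted in the Hox windows, so this share is not independent of the Hox counts. In the other 4 lists none of the 19 was occupied. All genes stood at 17.0% in the E16 cortex but at 3.59%, 2.03% and 6.09% in the 3 shorter lists, where 0 of 19 lies near the background. The 7 TALE homeobox genes of the Meis and Pbx families encode the DNA-binding cofactors of Hox proteins and are also used in the forebrain. Of these, 5 were occupied in the E16 basal ganglia and 3 in each cortex list. The bulb lists had 4 at E16 and 2 at P3. Their values included fold enrichments of 22.7 at Pbx3 in the basal ganglia, 20.4 at Meis2 in the E16 cortex and 9.35 at Pbx3 in the P3 bulb. Several TALE genes are long, and Meis2 alone held 46 basal ganglia summits.

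Of 22 known regulators of Hox genes, 11 were occupied in the E16 basal ganglia (50.0%, against 26.4% of all genes) and 9 in the E16 cortex (40.9% against 17.0%). These included the Polycomb genes Phc2 (fold enrichment 9.33 and 14.1) and Cbx2 (9.18 and 7.81) and the retinoic acid receptor gene Rara (7.96 and 6.29). The highest E16 cortex value was 14.7 at Ring1 and Rxrb, from the same region, so the occupied genes are not all independent. None of the 22 was occupied in either bulb list, where the all-gene shares of 3.59% and 2.03% also leave 0 of 22 near the background. In the P3 cortex 3 were occupied (13.6% against 6.09%), among them Ezh2 (6.14) and Rara (5.05). Of 17 forebrain homeobox genes, relatives of Hox that are active in this tissue, 15 were occupied in the E16 basal ganglia (88.2%). The cortex had 10 at E16 and 4 at P3, and the bulb 4 at E16 and 2 at P3. In the basal ganglia the highest values were 35.6 at Dlx5 and Dlx6, from the same region, and 35.3 at Dlx2, and in the E16 cortex the highest was 33.1 at Lhx2. Dlx5 and Dlx6 were occupied in all 5 lists.

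The labelled tissues cannot be checked by expression in these lists. By occupancy, Gsx2, Nkx2-1, Dlx5 and Dlx6 were all occupied in the E16 basal ganglia, with Dlx5 and Dlx6 in every other list too. Emx1, Tbr1 and Neurod2 were all occupied in the E16 cortex, with Tbr1 and Neurod2 in the basal ganglia too. Tbx21 and Pbx3 were occupied in both bulb lists, with Pbx3 in the basal ganglia and the P3 cortex too. In the P3 cortex 0 of the 3 cortical genes was occupied, which lies near the 6.09% of all protein-coding genes there. The all-gene share was 26.4% in the E16 basal ganglia and 17.0% in the E16 cortex. It was 3.59% in the E16 bulb and 2.03% in the P3 bulb. Of hindbrain and spinal cord genes, Egr2, Hoxb1, Hoxa2 and Cdx2 were occupied in none of the 5 lists.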

How the data were processed

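Per the labels' protocols, chromatin from fixed tissue was sheared, immunoprecipitated with an antibody to Dlx2 and sequenced. The submitters' processing notes name Trimmomatic, Bowtie2, SAMtools and MACS2, without versions, and the build mm10. The sources used here do not give the peak-calling threshold or its control library. The deposited lists give per region the authors' fold enrichment (a ratio over local background) and their −log10 p-value and −log10 q-value. Peak names carry a duplicate-removal mark in all regions of 4 lists and in 0 of 2139 of the P3 cortex list, and naming patterns differ between lists, so batch and group cannot be told apart. No counts or depths are given.

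Summits (region start plus offset, counted from 1), distances, occupancy and windows were computed with Python 3.11.15, numpy 2.4.6 and pandas 2.3.3 after tests on simulated peaks with known answers. Genes came from the RefSeq table of GRCm38.p6, whose gene bounds lack exons. Backgrounds use 21887 protein-coding genes on chromosomes 1 to 19, X and Y, and summit density uses the span between outermost annotated features. No genome sequence was used, so letters at the summits were not examined. Named genes are the Hox genes, genes at summits in the windows, Evx1, Evx2, non-coding genes within 1 kb of a summit and up to 3 members per comparison list by fold enrichment. Others are named to account for small counts, after their values were seen. Members and lists were chosen with earlier results of these data known, and the backgrounds of shorter genes and gene-rich windows after the data were seen. Some genes and their values are not reported here. Alternatives were other extensions, stricter lists, narrow regions and other joining rules.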

Additional observations from a re-analysis of the deposited data

How the results depend on the processing

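Of 47 counts recomputed under another setting, 41 stayed close to the reported count and 6 moved. With windows extended by 200 kb instead of 100 kb, the E16 basal ganglia list had 10 summits and the E16 cortex list 4. With 50 kb, the P3 cortex list had 0. With each list limited to its 734 highest regions by −log10 q, the length of the shortest list, the Hox windows held 0 E16 basal ganglia and 0 P3 cortex summits. With gene bodies extended by 50 kb, 8 Hox genes were occupied in the E16 basal ganglia. In each case the alternative's own construction, a wider or narrower stretch or fewer regions, changes what is counted. Many of the 41 were counts of 0 recomputed with a shorter reach, fewer regions or another joining rule, which was bound to give 0 again and says nothing about stability. Leaving out a library was not possible within a group, since each has 1, and unknown depth limits any reading of an empty window.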
